A study of Bos taurus with 42 samples.

Results

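The let-7 family of microRNAs (miRNAs) was followed from the bovine oocyte to cells grown out of blastocysts. Its members were all rows of the deposited small RNA table whose first annotated name begins with let-7 or is miR-98, without a mismatch in that name. This gave 23 of 12345 rows, among 619 rows annotated to bovine miRNAs. The 23 rows cover 8 let-7 letters (a, b, c, d, e, f, g and i) and miR-98, with 20 rows of the 5p arm and 3 rows of the 3p arm. A row is an annotated name, so let-7b and let-7b-5p are separate rows. The sources used here do not say how the reads of such paired rows differ.

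The library set held 42 libraries in 12 groups of 3 or 4. Embryos made by somatic cell nuclear transfer (NT), in which the nucleus of a skin fibroblast replaces that of the egg, and by in vitro fertilisation (IVF) were collected as 2-cell embryos on day 2, 8-cell embryos on day 3, morulae on day 6 and blastocysts on day 8, in pools of 20 embryos. Blastocyst-derived cells came from both kinds of embryo. Ear fibroblasts of a Brahma Spanish cross bull, which were also the nuclear donors, and mature metaphase II oocytes completed the series. IVF embryos were sired by a Holstein bull, so the method of production and the paternal genome cannot be told apart. The embryos of both kinds were cultured with bovine cumulus cells, and nothing in the labels says whether replicate pools came from separate animals, so p-values measure the spread between these pools.

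let-7 was first found in the worm Caenorhabditis elegans as a small RNA that times the passage from larva to adult. In mammals its letters and miR-98 share the same seed, the stretch near the 5′ end that picks targets, and they repress growth and stem cell genes such as LIN28, HMGA2, MYC and RAS. In mouse and human stem cells LIN28 in turn binds let-7 precursors and blocks their maturation, so mature let-7 is known to be scarce in pluripotent cells and plentiful in differentiated ones.

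Between 25119 and 3081186 reads were listed in a library (median 608572), of which 23 to 172935 belonged to the let-7 family (median 713). NT 2-cell replicate 4 held all 12345 rows and the other libraries 423 to 8919, so a name absent from that library is not listed. No listed row can thus be 0 in it, while rows can be 0 in any other library. Comparisons with NT 2-cell embryos, and their shares of all rows called, carry this limit. Oocyte libraries were rich in piRNAs, small RNAs of germ cells, at 88.1% to 91.5% of listed reads. Blastocyst libraries held miR-302a, a miRNA of pluripotent cells, at 0.407% to 0.764% of miRNA reads, and blastocyst-derived cells at no more than 0.0448%. Several libraries stood apart from their groups. IVF blastocyst-derived cell replicate 2 held no read of the epithelial list (miR-200c and miR-141, 4 rows) and 10.1% of the mesenchymal list (miR-143, miR-145, miR-199a, miR-199b and miR-214, 8 rows). The other 6 derived-cell libraries held 0.830% to 1.90% epithelial and 2.72% to 4.28% mesenchymal reads, and fibroblast replicate 4 held 0.000183% epithelial and 10.1% mesenchymal reads. IVF morula replicate 1 held 0.143% piRNA reads, with 1.43% epithelial reads and miR-302a at 0, against 80.5% and 74.4% piRNA reads in IVF morula replicates 2 and 4. IVF morula replicate 3 held only 796 miRNA reads and 4 of the 23 family rows. The library labelled fibroblast replicate 3 held 1.24% mesenchymal reads and 4.68% reads of the cumulus list, mostly miR-202, which were 0 and 0.00238% in fibroblast replicates 1 and 4. Oocyte replicates 1, 3 and 4 held 2.41%, 0.778% and 1.44% of the cumulus list, and the blastocyst libraries 0.0321% to 0.118%. Fibroblast replicate 1 was poor in miRNA, at 3.42% of listed reads against 41.2% and 37.9% in replicates 3 and 4. It held 14 of the 23 family rows.

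The mean share of the family in the bovine miRNA reads of a library was lowest in blastocysts and higher again in the derived cells. As percent of all listed reads the lowest NT mean lay instead in 2-cell embryos, at 0.0720%, with NT blastocysts at 0.0930%, and the lowest IVF mean in 8-cell embryos, at 0.118%, with IVF blastocysts at 0.136%. The share of bovine miRNA reads was 4.40% ± 1.13 in oocytes (SD, n = 3). Along NT development it was 3.22% ± 0.736 at the 2-cell stage (n = 4), 3.50% ± 1.05 at the 8-cell stage (n = 4), 2.27% ± 0.679 in morulae (n = 3), 0.582% ± 0.126 in blastocysts (n = 4) and 3.53% ± 1.03 in derived cells (n = 3). Along IVF development it was 4.30% ± 2.01 at the 2-cell stage (n = 4), 3.28% ± 1.35 at the 8-cell stage (n = 3), 2.32% ± 0.532 in morulae (n = 4), 1.16% ± 0.532 in blastocysts (n = 3) and 7.003% ± 5.98 in derived cells (n = 4). Without IVF blastocyst-derived cell replicate 2 the last value was 4.10% ± 1.70 (n = 3). Fibroblasts held 9.08% ± 6.02 (n = 3), from 4.23% in replicate 3 to 15.8% in replicate 4.

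Ordered by these means, groups next to each other overlapped in range except at the bottom of the order. All 3 NT morula libraries (1.85% to 3.06%) lay above all 3 IVF blastocyst libraries (0.710%, 1.75% and 1.02%), and IVF morula replicate 1 (1.65%) fell inside the IVF blastocyst range. All 4 NT blastocyst libraries (0.686%, 0.461%, 0.696% and 0.487%) lay below all 3 IVF blastocyst libraries, the nearest values being 0.696% and 0.710%. These shares depend on what they are divided by. As a share of all listed reads, which in oocytes are mostly piRNA, the family held 0.0930% in NT blastocysts and 0.136% in IVF blastocysts against 0.113% in oocytes, and NT (0.0539% to 0.141%) and IVF (0.106% to 0.173%) blastocysts overlapped, while NT and IVF derived cells held 2.49% and 4.21%. In pooled embryos, less let-7 per cell and a change in the make-up of the cells cannot be told apart.

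**Figure D1:**
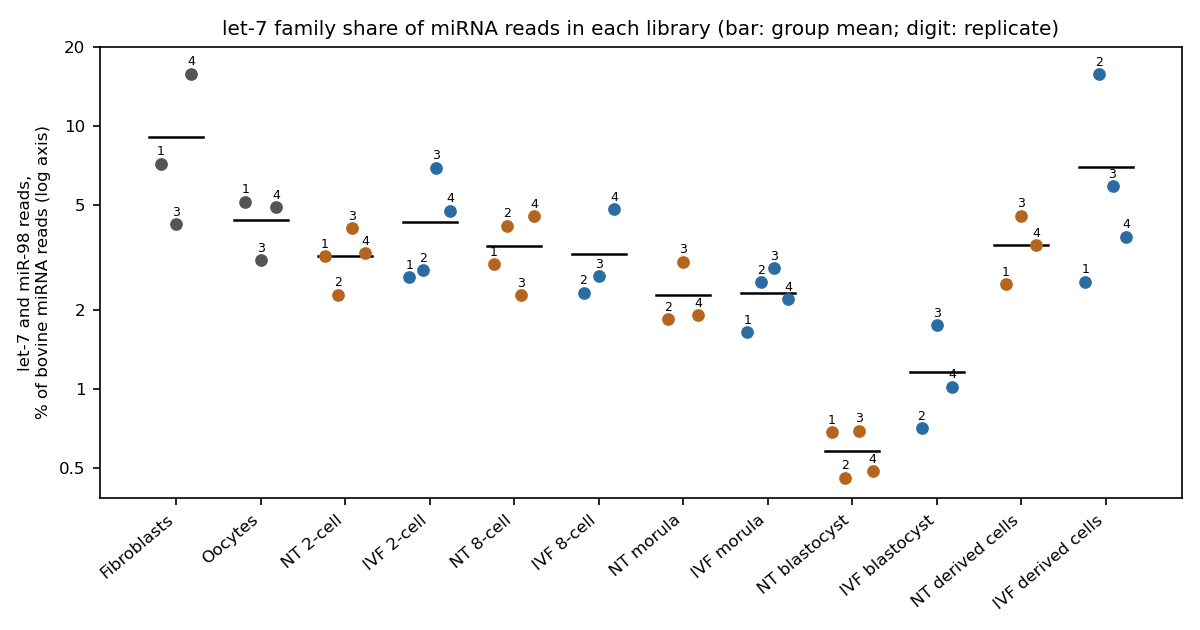
Share of the let-7 family in the bovine miRNA reads of each library, in percent on a log axis; dots are libraries with their replicate number and bars are group means. The 7 blastocyst libraries lie between 0.461% and 1.75%, below every oocyte library (3.09% or more), and all derived-cell libraries lie at 2.51% or more.

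Single rows were compared with limma on the deposited log2 values, 1 model over the 12 groups, with Benjamini-Hochberg adjustment over the 12039 rows tested in each comparison and a threshold of 0.05. Of the 23 members 22 were tested, miR-98-3p being too low. Log2 changes are on the variance-stabilised scale, which understates the change of low rows. The values given per library below are normalised reads, that is the deposited values taken back to reads divided by the library's size factor.

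From one stage to the next, limma called no member in NT or IVF embryos, be it from oocyte to 2-cell, 2-cell to 8-cell, 8-cell to morula or morula to blastocyst. Beside these counts of 0, limma called 2.43%, 0.498%, 6.35% and 1.38% of all rows in the 4 NT steps and 3.03%, 0.116%, 12.8% and 0.00831% in the 4 IVF steps. The IVF steps to and from the morula include IVF morula replicates 1 and 3, which stood apart from their group. At an unadjusted p under 0.05 the count of members was 3 in the NT step from oocyte to 2-cell, 1 each in the IVF steps to morula and to blastocyst, and 0 in the other 5 steps. Of the 12039 tested rows, 2114, 3385 and 474 lay under that cut in the steps with such members, and 1284 to 3160 in the other 5. limma with voom weights on the recovered reads called 2 members lower in NT blastocysts than in NT morulae and none in the other steps. A fit of the 2 groups alone called 11 members lower in NT blastocysts than in NT morulae. In the model of all 12 groups 20 of 22 changes were negative in that step, with a median of -1.38 beside -0.39 for all rows. In IVF morulae against 8-cell embryos 4 members were called lower after median centring and 3 with log2 of CPM, be it plus 1 or plus 10. For these alternative fits, here and below, the share of all rows called is not given. Their counts of members thus cannot be set against the whole table. Median centring and quantile normalisation also shift rows listed at 0, so counts under them can include rows without reads.

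Summed over the whole interval, members were lower in blastocysts than in oocytes, as was much of the table. In NT blastocysts 11 of 22 members (50.0%) fell, beside 38.5% of all rows and 16% of bovine miRNA rows called lower. In IVF blastocysts 5 of 22 (22.7%) fell, beside 33.9% of all rows and 8.59% of miRNA rows, and all 5 were also among the 11. The 5 rows were let-7e, let-7g, let-7g-5p, let-7i and let-7i-5p. Of the 7 rows of the cumulus list, 4 were called lower in NT and 4 in IVF, and their part in the result was not tested. The median change of the members was -2.26 in NT and -1.76 in IVF on the log2 scale, beside -0.87 and -0.86 for all tested rows. These medians were -0.37 and -0.14 with the values centred on each library's median, where all rows gave 1.03 and 0.76, and turned to 0.13 in both after quantile normalisation, so the direction of this decline rests on the scaling. The medians include let-7a-3p, let-7b-3p and the 3 rows with a mismatch in a later hit. These were listed at 0 in every oocyte and blastocyst library, and both scalings shift them too. Rows with reads also changed sign after quantile normalisation, among them let-7b, let-7d and let-7e in NT.

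let-7g, the third most abundant letter in oocytes, had 22.5, 12.5, 27.6 and 17.1 normalised reads in NT blastocysts, 37.9, 46.9 and 33.2 in IVF blastocysts and 458, 206 and 193 in oocytes. Every blastocyst library lay below every oocyte library, and the log2 change of let-7g was -3.48 ± 1.00 (SE) in NT (limma, adjusted p = 0.00323) and -2.61 ± 1.07 in IVF (adjusted p = 0.049). The IVF call ended without any 1 of the 6 libraries (limma, adjusted p from 0.0642 to 0.156). let-7i-5p, from a let-7 gene with no miRNA gene beside it, had 10.0, 2.63, 11.3 and 8.83 normalised reads in NT blastocysts, 8.92, 14.1 and 23.6 in IVF blastocysts and 201, 88.2 and 87.9 in oocytes. Its groups did not overlap either, and the log2 change was -3.32 ± 0.95 in NT (limma, adjusted p = 0.00281) and -2.65 ± 1.01 in IVF (adjusted p = 0.033). In IVF let-7i-5p did not pass without oocyte replicate 1 or 3 or IVF blastocyst replicate 2 or 3. It also did not pass there with the replicate number as a block in the model. let-7e changed by -2.74 ± 0.96 in NT (limma, adjusted p = 0.0172) and -2.75 ± 1.03 in IVF (adjusted p = 0.0289), at 0.988 to 5.64 and 0 to 8.30 normalised reads in the 2 kinds of blastocyst against 24.5 to 60.4 in oocytes. In IVF let-7e did not pass without IVF blastocyst replicate 3 or oocyte replicate 1 or 4 (limma, adjusted p from 0.0624 to 0.183). In NT it did not pass without oocyte replicate 1 (limma, adjusted p = 0.0687).

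let-7a-5p, let-7b, let-7c, let-7d and let-7f passed the limma test in NT blastocysts and not in IVF blastocysts. Their changes against oocytes were -2.92, -2.82, -3.19, -2.71 and -3.42 in NT (adjusted p from 0.0047 to 0.0181) and -2.11, -2.07, -2.34, -1.32 and -2.20 in IVF (adjusted p from 0.0665 to 0.34). Both comparisons share the oocyte libraries. miR-98-5p, at 0 to 1.31 normalised reads in all 7 blastocyst libraries and 15.1, 0 and 7.03 in oocytes, gave -1.23 in NT and -1.37 in IVF without passing (limma, adjusted p = 0.231 and 0.226). let-7a-3p, let-7b-3p and miR-98-3p were listed at 0 in every blastocyst and oocyte library. Oocyte replicate 1 carried several of these calls, with 7 members called in NT and 0 in IVF without it. The IVF count was 1 without IVF blastocyst replicate 3, 2 without oocyte replicate 4 or IVF blastocyst replicate 2, and 3 without oocyte replicate 3 or IVF blastocyst replicate 4.

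Against 8-cell embryos, 10 of 22 members (45.5%) fell in NT blastocysts, which is close to the 44.4% of all rows called lower and above the 15.3% of miRNA rows. let-7i-5p had the lowest adjusted p among the leading rows, with the NT blastocyst values above against 95.7, 45.3, 78.0 and 129.6 normalised reads in NT 8-cell embryos and a change of -2.84 ± 0.88 (limma, adjusted p = 0.00632). let-7a-5p, let-7d and let-7g also fell, by 2.23, 2.31 and 2.25 (limma, adjusted p = 0.0452, 0.0289 and 0.0406). The calls of let-7a-5p and let-7g ended without any 1 of the 8 libraries (limma, adjusted p from 0.0501 to 0.111), that of let-7d in 4 of these 8 fits, and after quantile normalisation let-7a-5p and let-7g gave 0.0572 and 0.15. let-7b, let-7c, let-7e, let-7f and miR-98-5p gave -1.41, -1.73, -0.37, -2.25 and -0.996 without passing, and let-7a-3p and let-7b-3p gave -0.55 and -0.30. The count was 6 to 7 whichever of the 8 libraries was left out, 0 after median centring and 1, which was higher, after quantile normalisation. In IVF blastocysts against 8-cell embryos no member passed, beside 17.6% of all rows, with 1 member and 3659 of the 12039 tested rows at an unadjusted p under 0.05. A fit of these 2 groups alone called 8, all lower, and the share of all rows called by that fit is not given here. The difference between the NT and IVF change, tested as an interaction in limma, called 0 members and 0% of all rows. At an unadjusted p under 0.05 there were 1 member and 280 of the 12039 tested rows.

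**Figure D2:**
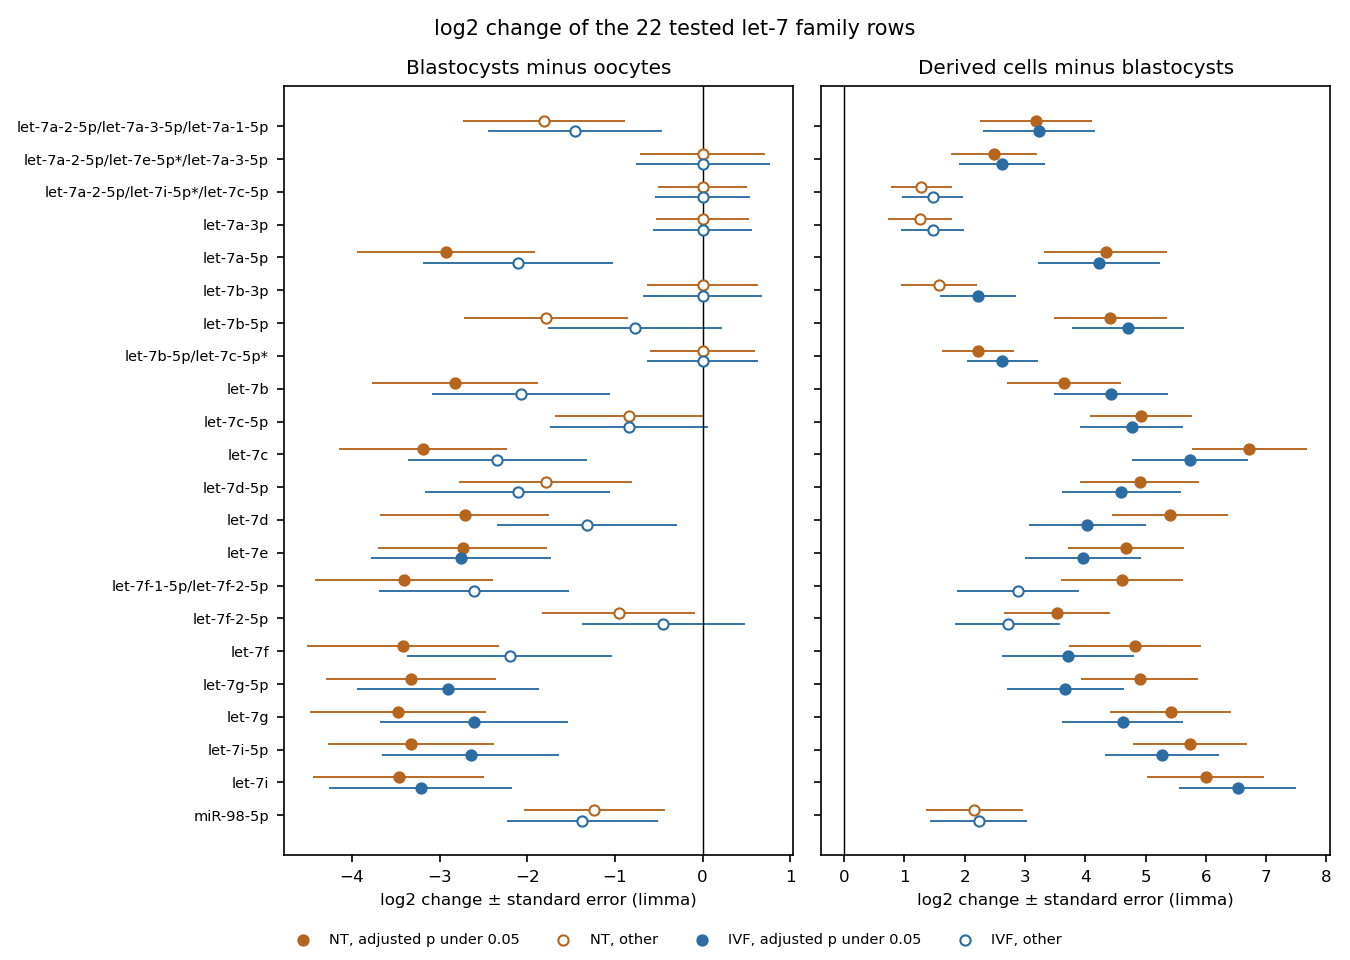
Log2 change of each tested family row in blastocysts against oocytes and in blastocyst-derived cells against blastocysts, with standard errors from limma; filled dots passed an adjusted p of 0.05, and an asterisk marks a row with a mismatch in a later hit of its name. The changes against oocytes lie at or below 0 (this side depends on the scaling) and the changes against blastocysts lie above 0 for all 22 rows, from 1.26 to 6.72 in NT and 1.47 to 6.53 in IVF.

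The clearest movement of the family was its higher level in blastocyst-derived cells than in blastocysts. In NT, 18 of 22 members (81.8%) rose, beside 0.988% of all rows and 20.1% of bovine miRNA rows called higher. In IVF, 17 of 22 (77.3%) rose, beside 0.93% of all rows and 17.7% of miRNA rows, and 16 members rose in both. No member fell. The median change of the members was 4.51 in NT and 3.84 in IVF, beside 0.80 and 0.67 for bovine miRNA rows and 0 for all tested rows. In NT 653 of the 12039 tested rows had a positive and 5076 a negative change, the rest being 0. The mean share of miRNA in listed reads was 70.6% and 64.3% in NT and IVF derived cells, against 15.7% and 12.8% in blastocysts. All 22 changes of members were positive as deposited, after median centring, after quantile normalisation and as log2 of CPM. The median of all rows moved to -0.73 and -0.35 after median centring. The number of calls did depend on the scale. With each library's reads scaled to a common total of miRNA reads (CPM, taken as log2 of CPM plus 1), 3 members passed in NT and 3 in IVF, with medians of 3.24 and 3.32. The mesenchymal and epithelial lists also differed between these groups, at 2.72% to 10.1% and 0 to 1.90% of miRNA reads in derived cells against 0.0652% to 0.219% and 0.121% to 0.352% in blastocysts, and miR-302a at no more than 0.0448% against 0.407% or more. Their part in the result was not tested.

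let-7c, whose gene lies beside those of miR-99a and miR-125b-2, moved furthest in NT. It had 623, 834 and 1015 normalised reads in NT derived cells and 4.17, 1.65, 6.77 and 2.36 in NT blastocysts. IVF derived cells had 214, 295, 2628 and 1727, and IVF blastocysts 6.69, 10.5 and 10.9. The lowest derived-cell library lay far above the highest blastocyst library in both, although the blastocyst values rest on 4 to 25 reads per library. let-7c rose by 6.72 ± 0.96 on the log2 scale in NT (limma, adjusted p = 1.37e-06) and by 5.73 ± 0.96 in IVF (adjusted p = 2.55e-05). The related row let-7c-5p was listed at 0 in all 7 blastocyst libraries and reached 35.0, 113 and 96.7 normalised reads in NT and 27.4, 9.70, 329 and 152 in IVF derived cells (limma, adjusted p = 3.88e-05 and 8.51e-05).

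let-7i and let-7i-5p came next. let-7i had 246, 228 and 477 normalised reads in NT derived cells and 1.67, 0.659, 3.95 and 0 in NT blastocysts, a log2 change of 6.00 ± 0.97 (limma, adjusted p = 1.51e-05). In IVF it had 207, 1669, 418 and 498 in derived cells and 0, 5.86 and 2.62 in blastocysts, a change of 6.53 ± 0.97 (limma, adjusted p = 3e-06). Without IVF derived-cell replicate 2 that change was 5.97, beside 6.17 for let-7c. Again no library of one group reached the range of the other. let-7i-5p rose by 5.73 ± 0.95 in NT and 5.27 ± 0.95 in IVF (limma, adjusted p = 2.09e-05 and 9.55e-05).

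let-7g had 664, 1010.2 and 1613 normalised reads in NT derived cells against 12.5 to 27.6 in NT blastocysts, and rose by 5.42 ± 1.00 there (limma, adjusted p = 0.000151) and by 4.62 ± 1.00 in IVF (adjusted p = 0.00113). let-7d rose by 5.41 ± 0.96 in NT and 4.04 ± 0.96 in IVF (limma, adjusted p = 7.34e-05 and 0.00341). let-7e rose by 4.67 ± 0.96 and 3.96 ± 0.96 (limma, adjusted p = 0.000831 and 0.00408), and the IVF change of let-7e did not pass without IVF blastocyst replicate 3 (adjusted p = 0.096). For these 3 letters the derived-cell libraries were again all above the blastocyst libraries. let-7e stayed the scarcest of them, with 79.2 to 365 normalised reads in NT and 23.5 to 318 in IVF derived cells.

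The most abundant letters, let-7a and let-7f, followed. let-7a-5p had 878, 1719.8 and 1525 normalised reads in NT derived cells and 70.0, 49.7, 100.4 and 37.7 in NT blastocysts. In IVF it had 359.6, 4629.8, 4411 and 2941 in derived cells and 105, 141 and 91.3 in blastocysts. The groups did not overlap, and let-7a-5p rose by 4.34 ± 1.01 in NT (limma, adjusted p = 0.00425) and 4.23 ± 1.01 in IVF (adjusted p = 0.00362). let-7f rose by 4.82 ± 1.10 in NT (limma, adjusted p = 0.00304) and 3.71 ± 1.10 in IVF (adjusted p = 0.0267). In IVF let-7f did not pass without derived-cell replicate 3 or 4 or without any 1 of the 3 blastocyst libraries (limma, adjusted p from 0.0668 to 0.135).

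let-7b varied widely between replicates. It had 163, 264 and 369.6 normalised reads in NT derived cells against 33.4, 4.61, 29.3 and 10.0 in NT blastocysts, and 79.6, 7547, 977 and 467 in IVF derived cells against 17.8, 41.0 and 34.1 in IVF blastocysts. One IVF library, replicate 2, stood well above the rest. let-7b rose by 3.65 ± 0.95 in NT (limma, adjusted p = 0.0124) and 4.42 ± 0.95 in IVF (adjusted p = 0.00102). Without replicate 2 the IVF change was 3.30 (limma, adjusted p = 0.0241), and without NT blastocyst replicate 2 or NT derived-cell replicate 3 or 4 let-7b no longer passed in NT. miR-98-5p, at 4.59, 11.9 and 22.4 normalised reads in NT and 0.527, 8.10, 31.0 and 24.4 in IVF derived cells, did not pass (log2 changes of 2.16 ± 0.80 in NT and 2.23 ± 0.80 in IVF, limma adjusted p = 0.183 and 0.103).

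The 3p arms, the strands that are usually degraded, made up 871 reads or 0.122% of all family reads. let-7a-3p reached 0, 4.46 and 5.77 normalised reads in NT derived cells and 1.05 to 6.09 in IVF derived cells. let-7b-3p had 2.87, 2.93 and 4.59 normalised reads in NT derived cells, and 1.05, 45.7, 5.22 and 4.37 in IVF derived cells, and was listed at 0 in all blastocysts. It passed in IVF (2.22 ± 0.63, limma adjusted p = 0.0196) and no longer without IVF derived-cell replicate 2 (1.53, adjusted p = 0.22) or without any 1 of the IVF blastocyst libraries (adjusted p from 0.0746 to 0.0876). In NT it gave 1.58 ± 0.63 (limma, adjusted p = 0.26), and let-7a-3p gave 1.26 and 1.47 in NT and IVF (limma, adjusted p = 0.318 and 0.103). These are fitted changes against groups listed at 0 and are no bounds. miR-98-3p had at most 2.19 normalised reads in any derived-cell library.

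A difference between NT and IVF in the size of the change was not detectable by limma's interaction test, with 0 of 22 members and 0% of all rows called. At an unadjusted p under 0.05 there were 0 members and 37 of the 12039 tested rows. The fitted differences, NT change minus IVF change, ran from -0.77 for let-7b to 1.72 for the shared row let-7f-1-5p/let-7f-2-5p, with standard errors of 1.13 for miR-98-5p and 1.34 to 1.55 for the leading 5p row of each letter. Leaving out IVF derived-cell replicate 2, the library without epithelial reads, gave 18 called members in IVF, of which 16 were among the 17. Leaving out IVF blastocyst replicate 3 gave 11.

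**Figure D3:**
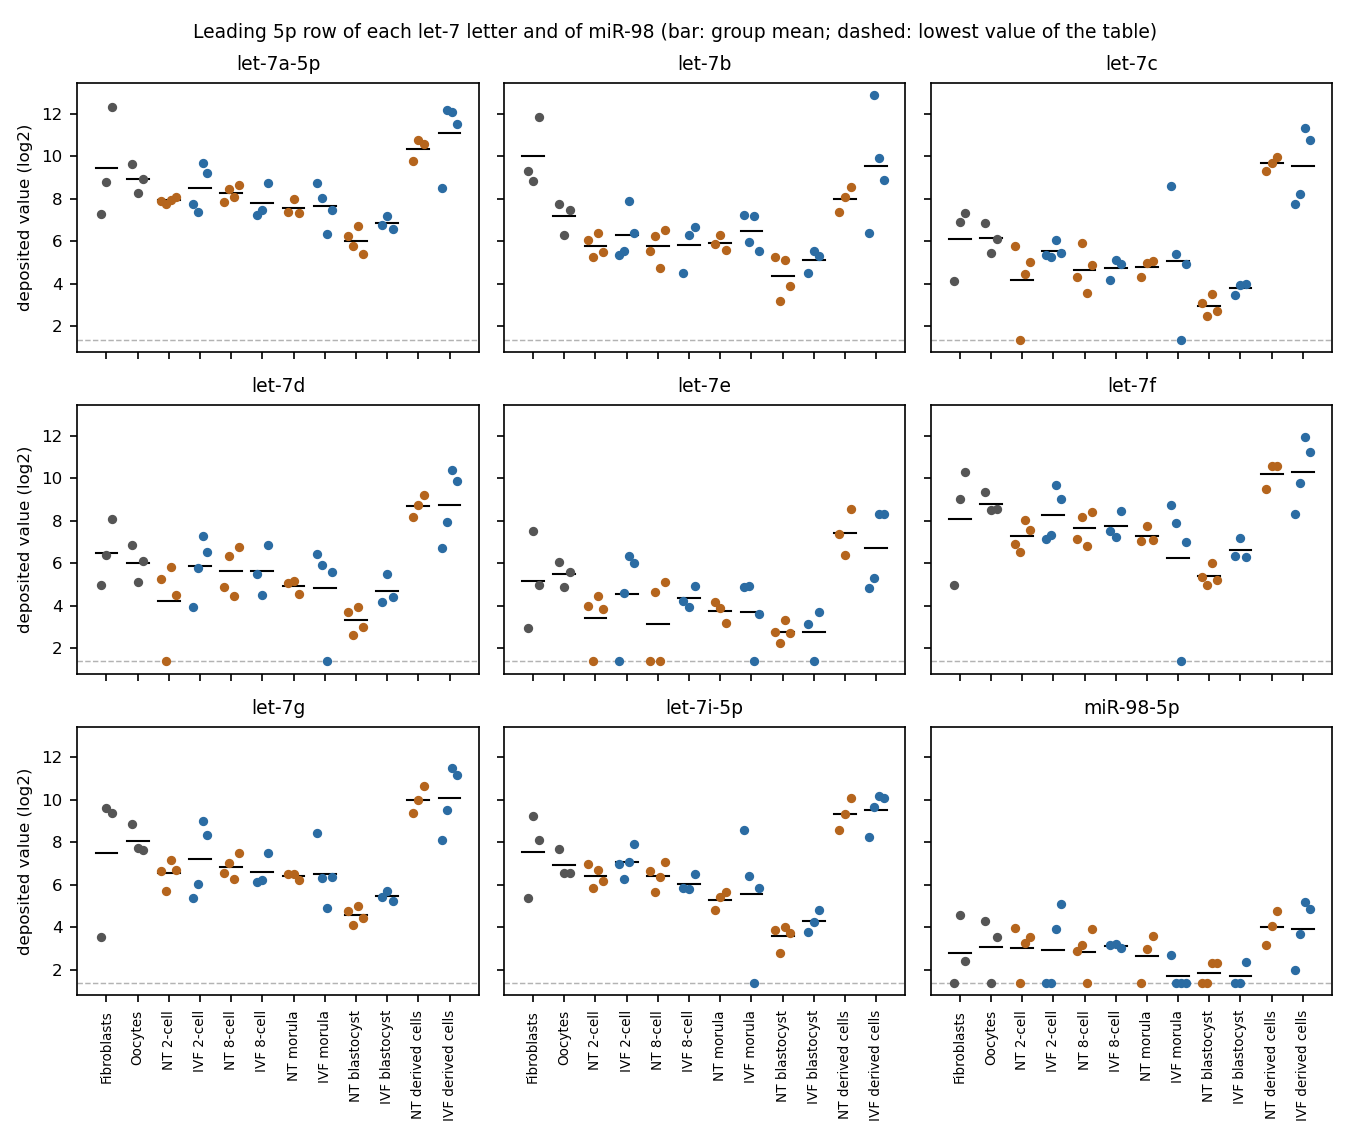
Deposited log2 value of the leading 5p row of each letter and of miR-98 in every library; dots are libraries, bars group means and the dashed line the lowest value of the table. For let-7a-5p, let-7c, let-7f, let-7g and let-7i-5p all derived-cell libraries lie above all blastocyst libraries of the same kind of embryo, while miR-98-5p stays near the bottom throughout.

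Within the family, the letters did not keep their proportions. Since a miRNA read spans the whole molecule, letters are compared here as percent of the family's reads. let-7a and let-7f together held 56.4% ± 3.60 of the family in oocytes (n = 3) and 57.5% to 62.2% on average in 2-cell and 8-cell embryos. In morulae they held 59.9% ± 3.55 in NT (n = 3) and 44.1% ± 16.5 in IVF (n = 4), where replicates 1 and 3 had 34.6% and 26.1%. They held 63.8% ± 6.81 in NT blastocysts (n = 4) and 63.5% ± 5.86 in IVF blastocysts (n = 3). In derived cells they held 41.6% ± 5.66 in NT (n = 3) and 39.2% ± 6.28 in IVF (n = 4), with all 7 libraries at 48.1% or less and all 7 blastocyst libraries at 56.8% or more.

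let-7c showed the opposite shift. It held 12.7%, 11.2% and 9.91% of family reads in NT derived cells and 1.75%, 1.20%, 1.95% and 1.56% in NT blastocysts. In IVF derived cells it held 10.9%, 1.69%, 13.0% and 11.8%, against 1.89%, 1.98% and 2.98% in IVF blastocysts. Replicate 2 was thus the one derived-cell library inside the blastocyst range. let-7i held 12.1%, 10.2% and 13.9% in NT and 22.7%, 13.7%, 7.02% and 9.88% in IVF derived cells, against 2.40% to 5.84% in NT and 2.52% to 7.15% in IVF blastocysts. Only the IVF derived-cell value of 7.02% and the IVF blastocyst value of 7.15% overlapped.

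The family of IVF derived-cell replicate 2 was led by let-7b at 46.7%, against 5.12%, 6.11% and 3.98% in the other 3 IVF libraries and 4.06% to 4.70% in NT derived cells. Fibroblast replicates 1, 3 and 4 held 71.8%, 10.1% and 33.3% let-7b. The same IVF library held 5.28% let-7f, against 18.4% to 24.6% in the other 6 derived-cell libraries and 2.63% to 14.2% in fibroblasts. IVF morula replicate 1 lay above the range of the derived cells for 2 letters, with let-7c at 14.7% and let-7i at 24.8%, against 3.56% and 5.53% let-7c and 7.51% and 8.73% let-7i in IVF morula replicates 2 and 4. IVF morula replicate 3 had 47.8% let-7b, on 23 family reads.

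**Figure D4:**
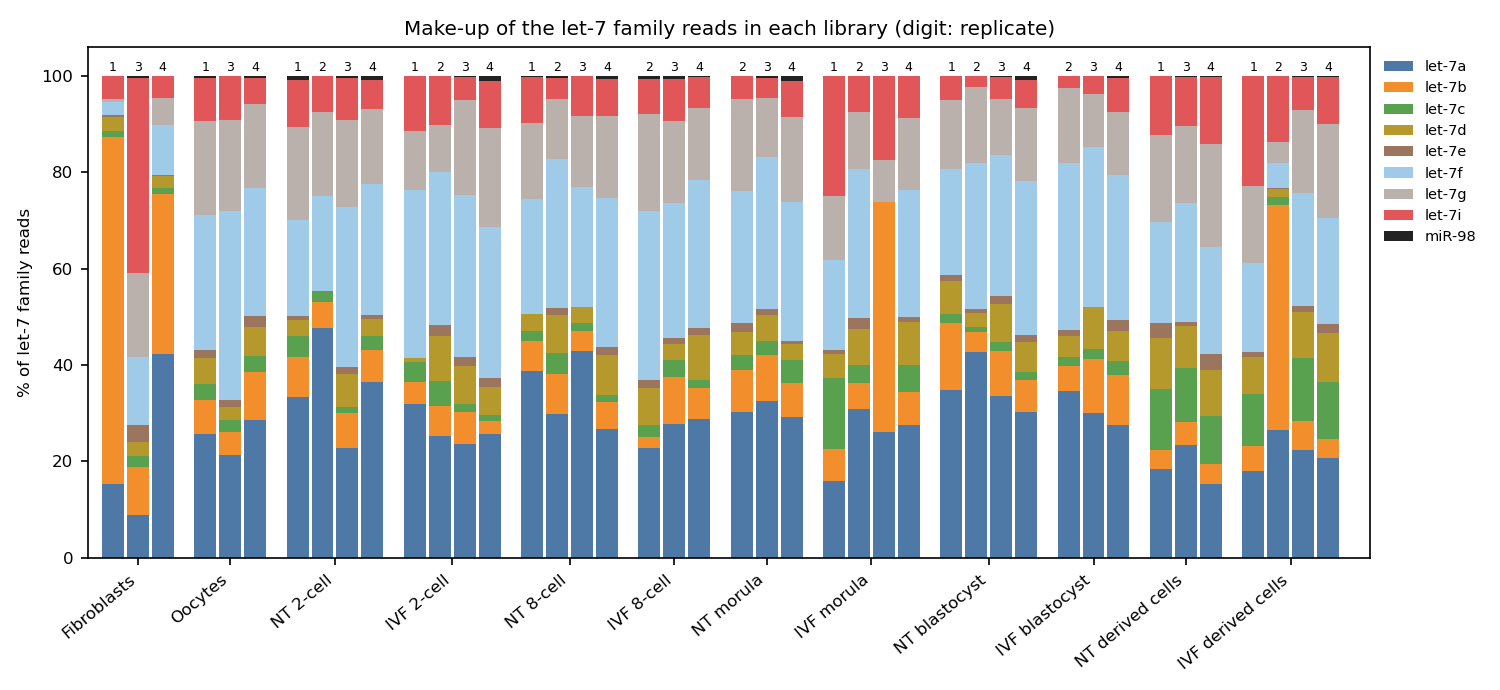
Percent of the let-7 family reads held by each letter in every library, as stacked bars from 0 to 100. let-7a and let-7f fill most of the oocyte and embryo bars except those of IVF morula replicates 1 and 3 (34.6% and 26.1%), let-7c is broadest in 6 of the 7 derived-cell libraries and in IVF morula replicate 1, and let-7b fills 46.7% of IVF derived-cell replicate 2.

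Fibroblasts, the donors of the NT nuclei, were unlike each other in the family. let-7b had 638, 459 and 3651 normalised reads in fibroblasts against 211, 73.5 and 172 in oocytes, with no overlap. Of 22 members 3 rose against oocytes and 2 fell, beside 1.36% of all rows and 9.79% of miRNA rows called higher, and 40.4% and 16.8% called lower. The 3 were let-7b (2.83 ± 1.01, limma adjusted p = 0.0187), let-7b-5p (3.09 ± 1.00, adjusted p = 0.00844) and let-7b-3p (2.39 ± 0.68, adjusted p = 0.00237), which had 40.2, 0.814 and 7.67 normalised reads in fibroblasts and was listed at 0 in oocytes, so that its fitted change is no bound. The 2 were let-7f-1-5p/let-7f-2-5p (-2.62 ± 1.08, limma adjusted p = 0.0435) and let-7g-5p (-2.48 ± 1.03, adjusted p = 0.0462), both listed at 0 in fibroblast replicate 1. That library had 23823 miRNA reads, against 440007 and 1092607 in fibroblast replicates 3 and 4. Both rows turned positive after quantile normalisation.

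The other leading rows gave 0.52 for let-7a-5p, -0.03 for let-7c, 0.46 for let-7d, -0.34 for let-7e, -0.73 for let-7f, -0.56 for let-7g, 0.65 for let-7i-5p, 0.43 for let-7a-3p and -0.29 for miR-98-5p, none passing. Single libraries decided much of this. let-7b did not pass without fibroblast replicate 4 (1.92, limma adjusted p = 0.189) or oocyte replicate 3 (2.39, adjusted p = 0.0982). let-7b-5p was lost without the same libraries and let-7b-3p without fibroblast replicate 1 (1.53, adjusted p = 0.0849). Neither lower row passed without fibroblast replicate 1, oocyte replicate 1 or oocyte replicate 3. The count of members was 1 without oocyte replicate 3 and 3 without fibroblast replicate 1 or oocyte replicate 1. It was 18, all higher, after quantile normalisation, and 1, also higher, with a fit of the 2 groups alone.

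Set against fibroblasts, blastocyst-derived cells had few called members. In NT derived cells let-7c-5p (4.02 ± 0.91, limma adjusted p = 0.00797) and let-7g-5p (4.05 ± 1.03, adjusted p = 0.0324) rose, 2 of 22 (9.09%) beside 0.565% of all rows and 10.8% of miRNA rows. In IVF derived cells let-7c-5p alone rose (3.87 ± 0.85, limma adjusted p = 0.0122), beside 0.291% of all rows and 6.01% of miRNA rows. let-7c-5p had 0, 1.09 and 4.47 normalised reads in fibroblasts, below every derived-cell library. All 3 calls ended without fibroblast replicate 1, the fibroblast library with the fewest miRNA reads. The NT count was also 0 without NT derived-cell replicate 3 or 4, 1 without replicate 1 and 4 without fibroblast replicate 4. The IVF count was 0 without IVF derived-cell replicate 3 or 4, 4 without replicate 2, 3 without replicate 1 or fibroblast replicate 4 and 2 without fibroblast replicate 3. let-7c gave 3.55 ± 1.02 in NT and 3.42 ± 0.96 in IVF without passing (limma, adjusted p = 0.097 and 0.132), and let-7b gave -2.003 and -0.48. The other leading rows gave 0.90 and 1.61 for let-7a-5p, 2.23 and 2.26 for let-7d, 2.28 and 1.55 for let-7e, 2.13 and 2.23 for let-7f, 2.50 and 2.57 for let-7g, 1.76 and 1.97 for let-7i-5p and 1.21 and 1.15 for miR-98-5p in NT and IVF, none passing. let-7a-3p gave 0.83 and 1.04 and let-7b-3p -0.82 and -0.17.

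Cloned embryos were compared with fertilised ones at each stage. No member was called at any stage by limma, beside 2.28% of all rows at the 2-cell stage, 0.00831% at the 8-cell stage, 0% in morulae, 0.00831% in blastocysts and 0% in derived cells. voom on the recovered reads called 0 members at each stage. At an unadjusted p under 0.05 there were 0, 2, 1, 0 and 0 members, beside 1988, 972, 1223, 74 and 33 of the 12039 tested rows. The 3 were let-7b-5p and a let-7a-2-5p row whose name also lists a hit with a mismatch, higher in NT at the 8-cell stage (2.03 ± 0.93 and 1.94 ± 0.72, limma adjusted p = 0.589 and 0.497), and let-7i, lower in NT morulae (-1.97 ± 0.97, adjusted p = 0.477). When IVF morula replicate 2 was left out, 1 member was called lower in NT morulae.

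In 2-cell embryos the leading rows lay between -1.63 ± 0.89 for let-7d and 0.34 ± 0.49 for let-7a-3p, and in 8-cell embryos between -1.24 ± 0.96 for let-7e and 0.55 ± 0.53 for let-7a-3p. The 2-cell value of let-7a-3p rests on 2 reads in NT 2-cell replicate 4, where no listed row can be 0. It was listed at 0 in all other 2-cell libraries. All tested rows also had a 2-cell median of 0.34, with 260 called higher and 15 lower in NT. Morulae gave -0.56 ± 0.95 for let-7b to 1.04 ± 1.10 for let-7f. In blastocysts the range was -1.40 ± 0.96 for let-7d to 0.14 ± 0.80 for miR-98-5p, with 13 of 22 members lower and 3 higher in NT, a median of -0.39 beside 0 for all rows. After median centring this split was 12 lower and 10 higher. Rows listed at 0 in every blastocyst library, such as let-7c-5p, had no change as deposited. Median centring shifts them too, so they count in the second split only. Derived cells gave -1.52 ± 0.95 for let-7b to 0.73 ± 0.96 for let-7e. Standard errors of these rows reached 1.10 on the log2 scale. Among all members, fitted differences as large as 2.03 in 8-cell embryos and -1.97 in morulae did not pass. Differences between NT and IVF of that size or below could thus go undetected here.

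The let-7 genes sit near other miRNA genes, and these partners were followed as well. In the RefSeq table of the ARS-UCD2.0 assembly, used for names and neighbours within 60 kb, 12 let-7 and miR-98 genes were found. MIRLET7C had MIR99A and MIR125B-2 as neighbours, MIRLET7A-2 had MIR100 and MIR125B-1, and MIRLET7E had MIR99B and MIR125A. The 10 partner rows (miR-99a, miR-99b, miR-100, miR-125a and miR-125b) held 2.57% ± 1.20 of miRNA reads in NT derived cells (n = 3) and 2.35% ± 0.899 in IVF derived cells (n = 4), against 0.469% ± 0.0887 in NT blastocysts (n = 4) and 0.630% ± 0.0884 in IVF blastocysts (n = 3).

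Of the 10 partner rows 7 (70.0%) rose in derived cells against blastocysts in NT and 7 (70.0%) in IVF, with medians of 3.95 and 3.75. Beside them, 0.988% and 0.93% of all rows and 20.1% and 17.7% of miRNA rows were called higher. miR-125b rose by 5.74 ± 0.99 in NT and 4.82 ± 0.99 in IVF (limma, adjusted p = 3.87e-05 and 0.000562). miR-99a-5p, encoded next to let-7c, rose by 5.33 ± 0.85 and 3.81 ± 0.85 (limma, adjusted p = 1.25e-05 and 0.00157), and miR-100-5p by 4.09 ± 0.85 and 4.26 ± 0.85 (adjusted p = 0.000889 and 0.00042). miR-99b-5p and miR-125a-5p, encoded next to let-7e, gave 1.94 and 3.39 in NT and 1.69 and 2.24 in IVF without passing (limma, adjusted p from 0.06 to 0.35), although the row miR-125a passed in both. In NT blastocysts against 8-cell embryos miR-99a-5p and miR-125b-1-5p were the 2 partner rows that fell (-2.78 and -2.53, limma adjusted p = 0.00314 and 0.00843). They made up 20.0% of the partner rows, beside 44.4% of all rows and 15.3% of miRNA rows called lower.

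let-7b shares its stretch of chromosome with let-7a-3, and let-7a-1, let-7f-1 and let-7d share another. Over the 12 group means of the deposited values, let-7b was the leading row least like the others, with Pearson r from 0.604 with miR-98-5p to 0.887 with let-7a-5p. let-7a-5p and let-7i-5p, from different genes, were the most alike (r = 0.986). These r values describe 12 groups that share the libraries and their depth.

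The paired rows of one letter also differed in balance. For let-7i, the row without an arm held 39.3%, 26.4% and 30.6% of the letter's 5p reads in NT derived cells, and 41.1%, 67.6%, 26.2% and 31.7% in IVF derived cells. It held 24.4%, 71.0% and 53.4% in fibroblasts, 34.4%, 37.9% and 16.7% in oocytes, and 0 to 29.4% in the 7 blastocyst libraries, on 8 to 60 reads there. For let-7b the row without an arm held most of the letter's 5p reads in every group on average, lowest at 64.4% ± 14.9 for NT at the 8-cell stage and 65.6% ± 15.8 for NT at the 2-cell stage (n = 4 each) and highest at 94.6% ± 4.74 in IVF 8-cell embryos (n = 3).

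Among 354 other tested bovine miRNA rows without a mismatch, those whose 12 group means followed the family's summed level most closely were miR-29a-3p (Pearson r = 0.926), miR-218-1-5p/miR-218-2-5p (0.924), miR-181a-1-5p/miR-181a-2-5p (0.921), miR-143-3p (0.913), a smooth muscle and fibroblast miRNA, and miR-27a-3p (0.888). miR-29a-3p, for example, had a mean deposited log2 value of 11.53 in NT and 12.56 in IVF derived cells, 6.33 in NT and 7.09 in IVF blastocysts and 8.08 in oocytes. The lowest r belonged to miR-3432a-2-5p/miR-3432a-1-5p (-0.865), miR-6526-2-3p/miR-6526-3-3p (-0.728), miR-1246-5p (-0.719), miR-3432a (-0.716) and miR-380-3p (-0.698). miR-3432a had 2.50 in NT and 3.59 in IVF derived cells, against 7.58 in NT and 7.53 in IVF blastocysts. These coefficients are a description over 12 group means.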

How the data were processed

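Small RNA under 200 nucleotides was sequenced on an Ion Proton from 42 samples, per the labels' protocols. Trim Galore, DESeq2 and the bosTau8 (UMD3.1) build are named in the submitters' processing notes, without versions. The deposited table holds log2-scale values, made by the authors with the variance-stabilising transformation of DESeq2 after scaling by size factors, as far as the values show. Inverting it gave whole reads for 100% of 188126 values above the lowest (tolerance 0.01 reads). The smallest such value stands for 2 reads, so a listed 0 may be 0 or 1 read.

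limma 3.58.1 in R 4.3.3 was run on the deposited log2 values with 1 model over 12 groups, a mean-variance trend and 30 residual degrees of freedom. Rows needed a value 1 log2 unit above the lowest in 3 libraries. The procedure was tested on simulated data. Alternatives were other filters, median centring, quantile normalisation, log2 of CPM of miRNA reads with a pseudocount of 1 or 10, voom on the recovered reads, a replicate block, fits of the compared groups alone and leaving out libraries.

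The members, marker lists and comparisons were chosen with earlier results of these data known. Named are the most abundant 5p row of each letter and of miR-98, each 3p arm, and up to 4 further called members per direction with the largest change. No mature sequence or genome was used here.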

Additional observations from a re-analysis of the deposited data

Results flagged for a closer look

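Of 66 groups of values examined in groups of 4 libraries, 2 had a library far from the other 3, where chance gives about 1 in 20. let-7d had a deposited log2 value of 1.3675, the lowest of the table, in IVF morula replicate 3, against 5.59 to 6.45 in the other 3 IVF morula libraries. This library held 23 family reads. miR-98-5p had a value of 2.6953 in IVF morula replicate 1 and the lowest value, 1.3675, in the other 3. This library, with 8282 family reads, was the deepest of the 4 and held 0.143% piRNA reads.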

How the results depend on the processing

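The rise in blastocyst-derived cells kept its direction in all 22 tested members under median centring, quantile normalisation, CPM and voom. let-7c and let-7i in NT and let-7c-5p and let-7i in IVF passed under every alternative run. Among single called members, 584 values under alternatives stayed past the threshold, 202 did not and 8 changed sign. The cause of the changes below was not tested.

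The number of called members moved as follows, with no share of all rows called given for the alternatives. Median centring and quantile normalisation also shift rows listed at 0. let-7a-3p, let-7b-3p and the 3 rows with a mismatch in a later hit were listed at 0 in every oocyte and blastocyst library. The counts under these scalings, those called higher against oocytes included, can thus hold rows without reads in either group. Median centring gave 1 in NT against IVF morulae (0 as reported), 0 in NT blastocysts against 8-cell embryos (10), 3 against oocytes (11, the 3 being higher), 1 in NT derived cells against fibroblasts (2), 4 in IVF morulae against 8-cell embryos (0), 10 in IVF derived cells against blastocysts (17) and 0 in IVF blastocysts against oocytes (5). Quantile normalisation gave 1 in NT blastocysts against 8-cell embryos, 0 against oocytes, 1 in NT derived cells against fibroblasts, 0 in IVF blastocysts against oocytes and 18 in fibroblasts against oocytes (5). With log2(CPM + 1) there were 3 in NT derived cells against blastocysts (18), 5 in NT blastocysts against 8-cell embryos, 2 against oocytes, 0 in NT and 0 in IVF derived cells against fibroblasts (2 and 1), 3 in IVF morulae against 8-cell embryos, 3 in IVF derived cells against blastocysts, 1 in IVF blastocysts against oocytes and 3 in fibroblasts against oocytes. With log2(CPM + 10) there were 4 in NT and 3 in IVF derived cells against blastocysts, 0 in NT and 0 in IVF derived cells against fibroblasts, 3 in IVF morulae against 8-cell embryos and 2 in IVF blastocysts against oocytes. voom gave 2 in NT blastocysts against morulae (0), 17 against 8-cell embryos, 19 against oocytes, 4 in NT derived cells against fibroblasts and 14 in IVF blastocysts against oocytes. A fit of the compared groups alone gave 11 in NT blastocysts against morulae, 16 against 8-cell embryos, 4 in NT and 0 in IVF derived cells against fibroblasts, 8 in IVF blastocysts against 8-cell embryos (0), 12 against oocytes and 1 in fibroblasts against oocytes.

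Changes of sign all came from quantile normalisation. NT blastocysts against 8-cell embryos gave 0.0572 for let-7a-5p and 0.15 for let-7g. NT blastocysts against oocytes gave 0.33 for let-7b, 0.32 for let-7d and 0.15 for let-7e, and IVF blastocysts against oocytes 0.18 for let-7i-5p. Fibroblasts against oocytes gave 0.50 for let-7f-1-5p/let-7f-2-5p and 0.81 for let-7g-5p.

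Leaving out 1 library at a time gave 13 to 17 called members in NT derived cells against blastocysts, 11 to 20 in IVF (11 without IVF blastocyst replicate 3), 6 to 7 in NT blastocysts against 8-cell embryos, 7 to 12 in NT and 0 to 3 in IVF blastocysts against oocytes (7 and 0 without oocyte replicate 1), 0 to 4 in NT and 0 to 4 in IVF derived cells against fibroblasts (0 without fibroblast replicate 1), 1 to 5 in fibroblasts against oocytes (1 without oocyte replicate 3) and 0 to 1 in NT against IVF morulae (1 without IVF morula replicate 2).

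Family share as percent of all listed reads was 2.66 in fibroblasts, 0.113 in oocytes, 0.217, 0.118, 0.339 and 0.136 in IVF 2-cell embryos, 8-cell embryos, morulae and blastocysts, and 0.0720, 0.121, 0.121, 0.0930 and 2.49 in the 5 NT groups from 2-cell embryos to derived cells. Replicate 1 held 1.06% in IVF morulae (group median 0.104) and replicate 3 0.617% in IVF 2-cell embryos (group median 0.105), and fibroblasts ran from 0.246% to 6.004%. Counting names with a mismatch too gave 5.63% of miRNA reads in oocytes, 4.19% in NT 2-cell embryos and 0.759% in NT blastocysts.

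Same-numbered NT and IVF libraries correlated at r from -0.087 to 0.466 (median 0.089, over 0.1 in 7 of 16 pairs). The highest values were those of derived-cell replicates 4 and 1 (0.466 and 0.339). Whether the numbers pair the samples is not settled by these values. A replicate block left 18 called members in NT derived cells against blastocysts and ended 1 call, let-7i-5p in IVF blastocysts against oocytes (-2.49, limma adjusted p = 0.0546).

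Depth limits several groups, with 257 to 839 family reads per blastocyst library, 314 to 686 per oocyte library, 132 in NT 2-cell replicate 2 and 23 in IVF morula replicate 3. Names absent from NT 2-cell replicate 4 are not listed.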
